A study of Homo sapiens with 10 samples.

Results

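The BCL2 family, the proteins that decide whether a cell opens the outer membrane of its mitochondria and dies, was followed through its messenger RNA in MOLT-4 cells. The genes were 3 inhibitors of apoptosis (BCL2, BCL2L1 and MCL1) and 7 promoters of it, namely the effectors BAX and BAK1 and the BH3-only genes BCL2L11, PMAIP1, BIK, BID and BBC3. Every probe set that the platform annotation gives one of these 10 symbols was taken, which found 23 of the 22215 probe sets that are no array controls. Of the 23, 22 carried a single symbol, and the probe set of BBC3 was also annotated to the microRNA genes MIR3190 and MIR3191. A filter on low values left 10 of the 23 probe sets to be tested, 9 of them with a single symbol, so that 8 of the 10 members had a tested probe set of their own. Over all genes, 2819 of 11963 had one.

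MOLT-4 is an established human line of T-cell acute lymphoblastic leukaemia. The 10 Affymetrix human gene arrays fell into 5 groups of 2 replicates each, namely 0 h, 0.5 h, 1 h, then 3 h and 6 h. All 5 groups, the 0 h group included, were labelled as having 10 ug/mL MABL, an antibody against the cell-surface protein CD47, together with 50 ug/mL GAM, an agent that the labels do not spell out. No arrays of untreated cells kept for the same times were analysed here, so time in culture and time with antibody cannot be told apart. No label states that the 2 replicates came from separate cultures, and the p-values measure the spread between these arrays, which may be technical. A level below is the square root of the deposited score, read as a log2 value. The submitters do not state the scale, so every fold change depends on how it was read here. In such bulk samples, fewer cells of a kind and less RNA per cell cannot be told apart.

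BCL2, BCL2L1 and MCL1 hold the death effectors BAX and BAK1 in check by binding them and by binding the BH3-only proteins. BAX and BAK1, once freed or activated, assemble into pores in the outer mitochondrial membrane, through which cytochrome c escapes and starts the caspases. The BH3-only proteins are the sensors of the family: each responds to its own kind of stress, and some bind a single inhibitor by preference, as the PMAIP1 product NOXA does with MCL1. Much of this regulation acts on the proteins, which the arrays did not measure.

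Of 16 markers of the T lineage, 11 passed the filter, CD3D (mean level 12.4) and LCK (10.4) among them, while CD4, CD7, CD2, CD8A and RAG1 did not. RAG1 averaged 4.98 at 0 h and ran from 3.56 to 5.28 over the arrays. None of the 5 B-lineage, 6 myeloid and 2 erythroid markers with a probe set passed the filter, and of 4 fibroblast markers COL1A1 did, with a mean of 5.24. The summed T-lineage level lay between 12.90 and 13.13 over the 10 arrays, a sum in which CD3D weighs most. Of the 11 tested T-lineage markers, 3 were called lower at some time by limma: DNTT at 1 h (-0.64, adjusted p = 0.0328) and 3 h (-1.03, 0.00606), CD1B at 3 h (-0.45, 0.0271) and CD1A at 6 h (-0.76, 0.0378). Of all tested probe sets, 15.1%, 24.2%, 26.4% and 21.6% were called lower at the 4 later times, and nothing particular to these markers is read from their count. With equal array medians only the 3 h call of DNTT was kept (0.00725). Other signals moved with time. The probe sets for 18S ribosomal RNA averaged 9.10 ± 0.90 (SD, n = 2) at 0 h, 10.53 ± 0.37 at 0.5 h and 11.68 ± 0.49 at 6 h, and the spiked-in controls 10.00 ± 0.29, 10.76 ± 0.034 and 10.63 ± 0.032 at 0, 3 and 6 h. The array medians of the 4276 probe sets tested differed from those at 0 h by -0.13, -0.29, -0.31 and -0.25 at the 4 later times. Over all probe sets, the array medians of the deposited scores ran from 8.16 to 8.56. Over the 4276 probe sets tested, the median change from 0 h was 0.01, -0.03, -0.15 and -0.14 at the 4 times. The part of these signals in the results below was not tested. Values with equal array medians (of the tested probe sets), or with 18S or spike-in signal as a covariate, stand beside the calls that they changed.

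Among the inhibitors, MCL1 fell within 0.5 h and was lower than at 0 h at every later time, while no change of BCL2 or BCL2L1 passed the test. MCL1 encodes a short-lived protein on which many leukaemia cells depend. Its tested probe set read 7.26 and 7.21 at 0 h, 6.66 and 6.52 at 0.5 h, 6.20 and 6.28 at 1 h, 6.38 and 6.19 at 3 h and 6.29 and 6.72 at 6 h. Both arrays at 0 h were above all 8 later arrays, with no overlap, and the 6 h arrays were the farthest apart. The change from 0 h was -0.64, -0.997, -0.95 and -0.73 at the 4 later times (SE 0.151 each), with limma adjusted p = 0.0235, 0.00218, 0.00398 and 0.0107. This corresponds to 1.56-fold, 2.00-fold, 1.94-fold and 1.66-fold lower levels, and the 95% interval at 1 h ran from -1.35 to -0.65. The later steps did not pass the test: the change from 0.5 h to 1 h was -0.35 (limma adjusted p = 0.378), from 1 h to 3 h 0.04 (0.915) and from 3 h to 6 h 0.22 (0.472). The 4 later groups were therefore not told apart from their neighbours.

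The fall of MCL1 kept its direction but lost its call in several settings. With 18S signal as a covariate the changes were -0.41, -0.73, -0.60 and -0.31 at the 4 times (limma adjusted p = 0.383, 0.0976, 0.385 and 0.746), smaller by over 1.5 times at 0.5, 3 and 6 h. With the spike-ins they were -0.60, -0.95, -0.82 and -0.62 (0.114, 0.0136, 0.352 and 0.315), so that most of the size was kept while the call stood at 1 h alone. With the array medians set equal, MCL1 was still called lower at each time, with -0.52, -0.71, -0.64 and -0.48. The 0.5 h call rested on each of its 4 arrays: leaving out 0 h replicate 1 or 2, or 0.5 h replicate 1 or 2, gave limma adjusted p = 0.131, 0.0731, 0.0579 and 0.143. At 6 h the adjusted p became 0.0675 without 0 h replicate 1 and 0.0519 without 6 h replicate 1. With no filter on low values, it was 0.111 at 0.5 h and 0.0576 at 6 h. The other 4 MCL1 probe sets had means of 3.25, 2.68, 2.56 and 2.33 and were not tested. The one with a mean of 2.68 read 2.70 and 3.28 at 0 h and between 2.37 and 2.94 in the other 8 arrays, so that its groups overlapped.

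BCL2, the founding member of the family, read 5.24 and 5.23 at 0 h, 5.21 and 5.27 at 0.5 h, 5.31 and 5.31 at 1 h, 5.39 and 5.29 at 3 h and 5.27 and 5.21 at 6 h. The 10 arrays spanned 0.18, little above the filter level of 5, where a change of the RNA could be missed. The changes from 0 h were 0.01, 0.07, 0.11 and 0.01 (SE 0.0918), with limma adjusted p = 0.969, 0.605, 0.436 and 0.973. Measured against equal array medians, BCL2 was called higher by 0.36 at 1 h (limma adjusted p = 0.0369) and 0.42 at 3 h (0.0265), and quantile normalization gave 0.33 and 0.36. Since the array medians of the tested probe sets were lower at those times, a nearly level signal becomes a higher one under that scaling. The other 3 BCL2 probe sets averaged 2.79, 2.61 and 2.56 and were below the filter.

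BCL2L1, whose long form BCL-XL protects cells, read 5.62 and 5.61 at 0 h, 5.69 and 5.61 at 0.5 h, 5.64 and 5.62 at 1 h, 5.54 and 5.56 at 3 h and 5.62 and 5.60 at 6 h. The lowest and the highest array were 0.15 apart, with both 3 h arrays below the others. This signal too was not far above the filter level. The changes were 0.03, 0.02, -0.07 and -0.00 (SE 0.0879; limma adjusted p = 0.852, 0.922, 0.626 and 0.985), and the 95% interval at 3 h ran from -0.27 to 0.14. The probe sets do not separate the long protective form from the short form that promotes death. The other 2 BCL2L1 probe sets, with means of 4.27 and 4.26, were not tested.

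**Figure D1:**
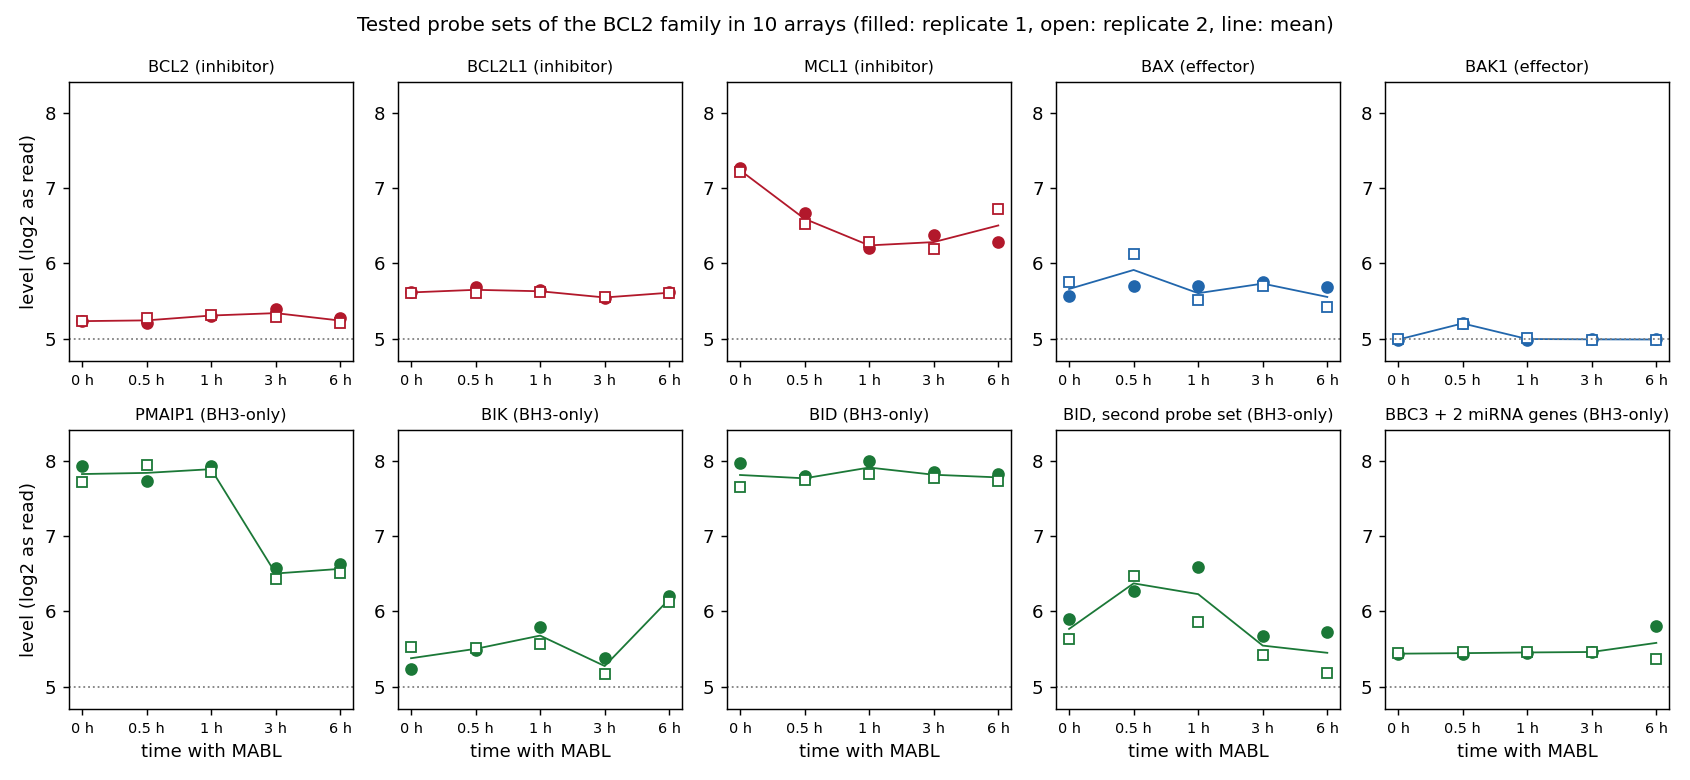
Level of each tested probe set (vertical axis, square root of the deposited score read as log2) at 5 times (horizontal axis), with replicate 1 filled, replicate 2 open, a line through the means and the filter level of 5 dotted. MCL1 is lower than at 0 h from 0.5 h on, PMAIP1 is near 7.8 up to 1 h and near 6.5 at 3 and 6 h, and BIK is highest at 6 h.

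Neither effector changed by the test. BAX, which moves from the cytosol to mitochondria when activated, read 5.57 and 5.75 at 0 h, 5.70 and 6.12 at 0.5 h, 5.70 and 5.51 at 1 h, 5.76 and 5.71 at 3 h and 5.69 and 5.42 at 6 h. All 4 later groups overlapped the 0 h arrays. The changes were 0.25, -0.06, 0.07 and -0.11 (SE 0.166; limma adjusted p = 0.366, 0.848, 0.79 and 0.689). A further BAX probe set lay between 4.35 and 4.79 and was not tested.

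BAK1, the effector resident on mitochondria, sat at the filter. It read 4.99 and 4.99 at 0 h, 5.21 and 5.19 at 0.5 h, 4.99 and 5.00 at 1 h, 5.00 and 4.99 at 3 h and 5.00 and 4.98 at 6 h. The 0.5 h arrays were above the 8 others, which covered a few hundredths, and they were 2 of the 4 arrays through which BAK1 passed the filter. The change at 0.5 h was 0.21 (SE 0.0857; limma adjusted p = 0.135), and the later changes were 0.01, 0.00 and 0.00. The 0.5 h change was called when all probe sets were tested without the filter (adjusted p = 0.00647) and when log2 of the scores was tested (0.0362).

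The promoter of BAX is printed because it held more E-boxes than any other member's window, at 4. It is the RefSeq sequence of GRCh38.p14, chr19:48954625-48954874, plus strand, the 250 bases before the start site, 5′ to 3′, with matches to the motifs searched in capitals. The motifs were the GC box GGGCGG, the E-box CACGTG, a site type bound by MYC with MAX, and the CRE core TGACG, part of the element bound by ATF and CREB factors, each on both strands.
BAX: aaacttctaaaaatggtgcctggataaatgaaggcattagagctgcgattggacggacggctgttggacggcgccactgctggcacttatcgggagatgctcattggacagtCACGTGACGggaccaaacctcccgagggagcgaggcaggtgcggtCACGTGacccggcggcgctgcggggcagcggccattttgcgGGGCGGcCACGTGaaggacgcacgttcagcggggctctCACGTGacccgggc
The E-boxes begin 138, 93, 45 and 14 bases before the start, a GC box 52 bases before it, and a CRE core 134 bases before it that overlaps the farthest E-box. Of 35116 RefSeq promoter windows of the same length, 6.34% held an E-box, 42.6% a GC box and 21.2% a CRE core. A match is a run of letters and not a measured binding site.

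The BH3-only gene PMAIP1 fell between 1 h and 3 h. PMAIP1 encodes NOXA, which binds MCL1 and promotes its breakdown. Its tested probe set read 7.93 and 7.72 at 0 h, 7.73 and 7.94 at 0.5 h, 7.93 and 7.85 at 1 h, 6.57 and 6.43 at 3 h and 6.62 and 6.51 at 6 h. The first 6 arrays and the last 4 did not overlap, and within each of these blocks the groups overlapped. The change from 0 h was 0.02 at 0.5 h and 0.06 at 1 h (SE 0.123; limma adjusted p = 0.966 and 0.746). It was -1.32 at 3 h (95% interval -1.60 to -1.03, adjusted p = 0.00184) and -1.26 at 6 h (-1.54 to -0.97, adjusted p = 0.000819), or 2.49-fold and 2.39-fold lower. The step from 1 h to 3 h was -1.38 (limma adjusted p = 0.00312) and that from 3 h to 6 h 0.06 (0.843). By limma's F test over the 5 times, PMAIP1 stood at rank 25 of 4276 probe sets (F = 68.21, adjusted p = 0.000512).

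The calls of MCL1 began at 0.5 h and those of PMAIP1 at 3 h, and the difference between the courses was not tested. The changes at 3 and 6 h of PMAIP1 kept their size with 18S signal as a covariate (-1.25 and -1.18) but not their call (limma adjusted p = 0.204 and 0.18), and likewise with the spike-ins (-1.36 and -1.29; adjusted p = 0.294 and 0.0719), with which the step from 1 h to 3 h was -1.41 (0.111). With 18S that step was -1.37 and still called (limma adjusted p = 0.00926). Set to equal array medians, the changes at 3 and 6 h were both -1.01 and called. A second PMAIP1 probe set, below the filter, lay between 3.54 and 4.27.

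The promoter of PMAIP1 is printed because the gene had the largest change among the members. It is RefSeq's GRCh38.p14 sequence chr18:59899746-59899995, plus strand, over the same 250 bases and with the same marking.
PMAIP1: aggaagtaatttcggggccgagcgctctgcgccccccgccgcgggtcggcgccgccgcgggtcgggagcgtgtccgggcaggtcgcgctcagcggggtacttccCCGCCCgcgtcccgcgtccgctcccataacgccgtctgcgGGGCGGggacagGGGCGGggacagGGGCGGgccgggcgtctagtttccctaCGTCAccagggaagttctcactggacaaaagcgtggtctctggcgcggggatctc
It held 4 GC boxes, beginning 146, 106, 94 and 82 bases before the start, and a CRE core beginning 55 bases before it, with no E-box. RefSeq windows were found for 8 of the 10 members, with 13 windows in all, as some genes have several starts. Of the 13 windows, 8 held a GC box, 4 an E-box and 4 a CRE core. Windows of BID count more than once here, and no window of BCL2, BCL2L1 or BBC3 held a GC box. MCL1 and BIK matched no window.

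**Figure D2:**
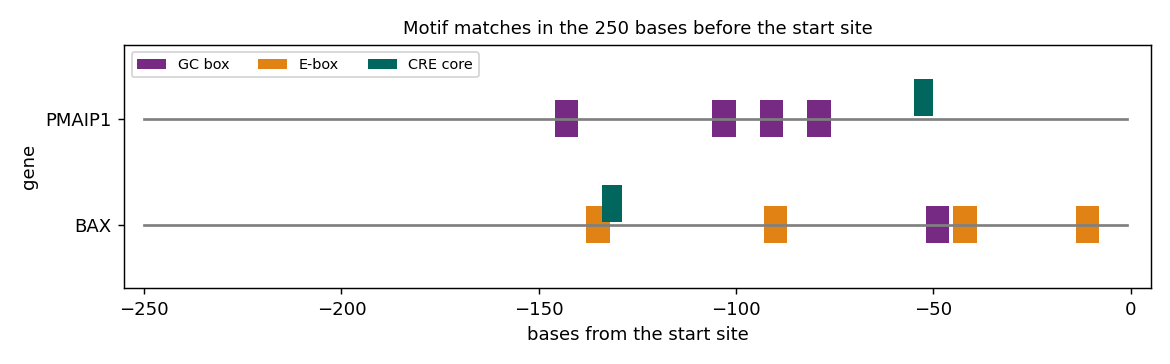
Positions of the motif matches (coloured bars) in the 250 bases before the start sites of BAX and PMAIP1, with the distance from the start site in bases on the horizontal axis. The BAX window holds 4 E-boxes and the PMAIP1 window 4 GC boxes.

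BIK was the member that rose. BIK encodes a BH3-only protein that acts largely from the endoplasmic reticulum. It read 5.23 and 5.52 at 0 h, 5.49 and 5.51 at 0.5 h, 5.79 and 5.57 at 1 h, 5.38 and 5.17 at 3 h and 6.20 and 6.12 at 6 h. Both 6 h arrays were above the other 8, which lay between 5.17 and 5.79, not far above the filter level of 5. The change from 0 h was 0.12, 0.30 and -0.10 at the first 3 times (limma adjusted p = 0.613, 0.152 and 0.627) and 0.78 at 6 h (SE 0.137, 95% interval 0.47 to 1.10, adjusted p = 0.00613), or 1.72-fold higher. From 3 h to 6 h BIK rose by 0.89 (limma adjusted p = 0.00899). That step had an adjusted p of 0.0538 without 3 h replicate 2 and 0.058 with no filter. The 6 h change was 0.52 with 18S signal as a covariate (adjusted p = 0.525) and 0.48 with the spike-ins (0.316). The step from 3 h to 6 h kept its call in both fits. It was 0.85 with 18S (limma adjusted p = 0.0149) and 0.95 with the spike-ins (0.0134). With equal array medians BIK was called higher at 1 h too, by 0.59 (0.00761), and by 1.03 at 6 h.

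BID, which caspase-8 cleaves to link death receptors to mitochondria, had 2 tested probe sets, and no change of either was called. The first read 7.96 and 7.65 at 0 h, 7.79 and 7.74 at 0.5 h, 7.996 and 7.82 at 1 h, 7.85 and 7.77 at 3 h and 7.82 and 7.73 at 6 h, and every group overlapped the 0 h arrays. Its changes were -0.04, 0.10, 0.00 and -0.03 (SE 0.128; limma adjusted p = 0.873, 0.622, 0.99 and 0.894). The second read 5.90 and 5.63 at 0 h, 6.27 and 6.47 at 0.5 h, 6.59 and 5.86 at 1 h, 5.68 and 5.42 at 3 h and 5.72 and 5.18 at 6 h. Its 0.5 h arrays were above both 0 h arrays, and its changes were 0.60, 0.46, -0.22 and -0.32 (SE 0.264; limma adjusted p = 0.17, 0.245, 0.586 and 0.421). With equal array medians, the first was called higher at 1 h by 0.39 and the second at 0.5 h by 0.73 and at 1 h by 0.75.

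BCL2L11, the gene of BIM, which engages all the inhibitors and shapes T-cell selection in the thymus, was below the filter and not tested. Its probe sets lay between 3.32 and 3.77, with the 1 h arrays at 3.56 and 3.77, and between 2.65 and 2.74. The probe set shared by BBC3, the gene of PUMA, with 2 microRNA genes read 5.80 and 5.36 at 6 h and 5.43 to 5.47 in the other arrays. Its changes of 0.01, 0.02, 0.02 and 0.14 had limma adjusted p = 0.988, 0.949, 0.926 and 0.496, and none is ascribed to BBC3. The 13 untested probe sets of the family held values from 2.30 to 4.79, and 10 of them spanned less than 0.5 over the arrays. When all 22215 probe sets were tested with limma, 0 of these 13 were called at any time, and 2 had an unadjusted p under 0.05 at some time. No share of all probe sets stands beside that count, and nothing is read from it.

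**Figure D3:**
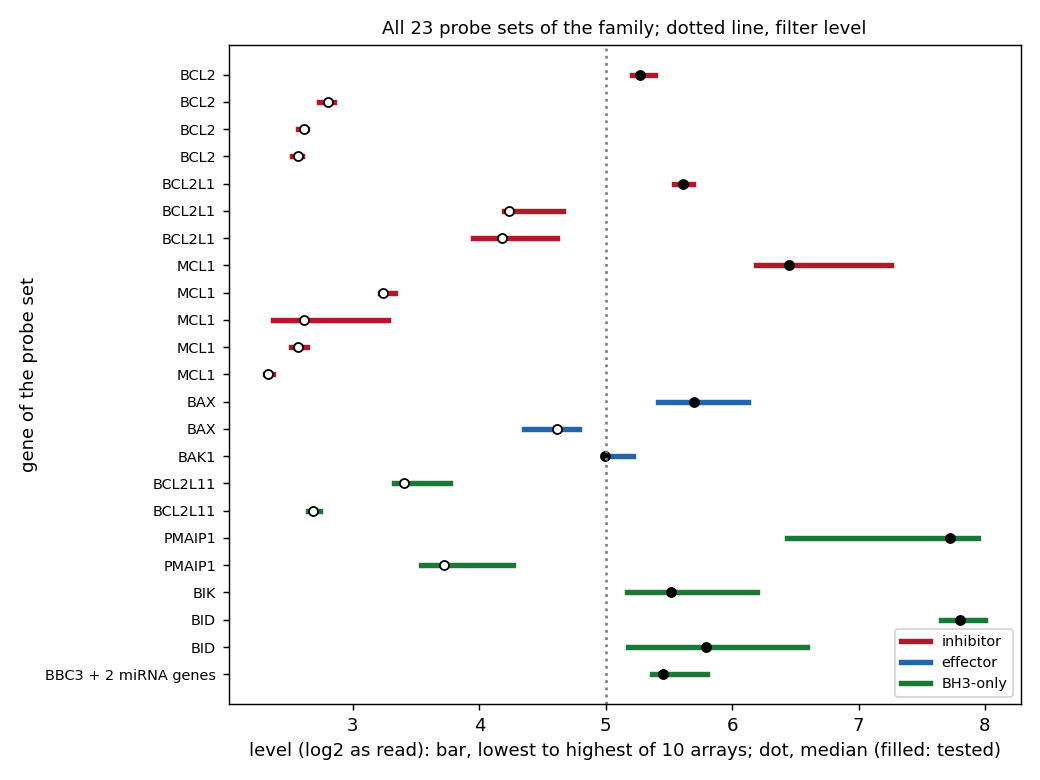
Range over 10 arrays (bars, coloured by role) and median (dots, filled where tested) of all 23 probe sets of the family on the log2 scale as read, with the filter level dotted. The 10 tested probe sets reach 5 or more, and the 13 others end at or below 4.79.

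The counts of called members are read against those of all 4276 tested probe sets. Called means limma adjusted p under 0.05. At 0.5 h, 1 of the 10 member probe sets was called lower and 0 higher, where 15.1% of all tested probe sets were called lower and 1.92% higher. At 1 h, 1 was lower and 0 higher against 24.2% and 4.14%, and at 3 h, 2 were lower and 0 higher against 26.4% and 2.53%. At 6 h, 2 were lower and 1 higher against 21.6% and 4.07%. At an unadjusted limma p under 0.05, 1, 0, 0 and 1 members were higher and 1, 1, 2 and 2 lower at the 4 times. The share of all probe sets at that unadjusted threshold is not given here, and nothing is read from these unadjusted counts. By the F test over the 5 times 3 of 10 were called (MCL1, PMAIP1 and BIK) against 39.6%. The shares at adjusted p are near or under the background, other than the 1 higher call at 6 h, which is BIK alone. They are no result about the family. The direction of the calls depended on the scaling. With equal array medians 1 member was higher and 1 lower at 0.5 h, against 6.90% and 15.3% of all probe sets, and 4 were higher and 1 lower at 1 h, against 32.5% and 19.5%. With quantile normalization 3 were higher and 1 lower at 1 h, against 24.0% and 20.3%.

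Between successive times, PMAIP1 was the member called lower from 1 h to 3 h, where 1.82% of all probe sets were lower and 1.94% higher, and BIK the member called higher from 3 h to 6 h, where 5.00% were higher and 2.08% lower. From 0.5 h to 1 h, 0.0468% of all probe sets were called in either direction, and no member was. The submitters' rule asks that both replicates differ more than 2-fold from the geometric mean at 0 h. It was met by PMAIP1 at 3 h (-1.25 and -1.39) and 6 h (-1.20 and -1.32). The rule's lower side took 5.99%, 11.4%, 6.69% and 4.09% of all tested probe sets at the 4 times. MCL1 missed it, with -1.04 and -0.96 at 1 h and -0.86 and -1.05 at 3 h, so that 1 replicate fell short at each of these times. With log2 of the scores, with equal medians or with quantile normalization, no member met it.

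**Figure D4:**
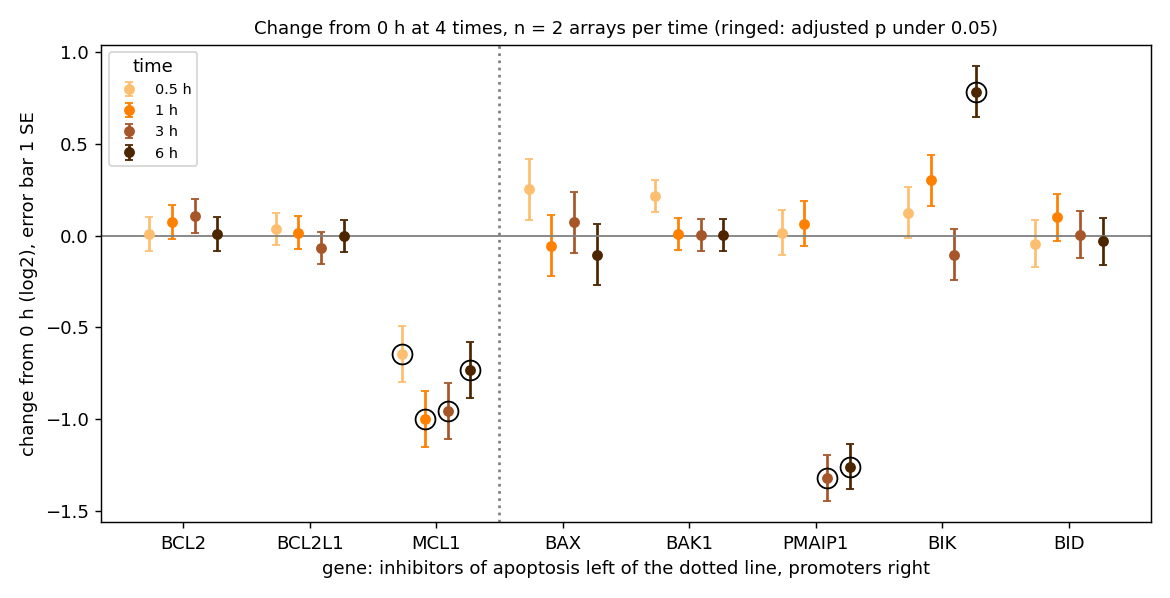
Change from 0 h (vertical axis, log2 as read, error bar 1 SE, n = 2 arrays per time) of 8 members at 0.5, 1, 3 and 6 h, with inhibitors left of the dotted line and rings where limma's adjusted p was under 0.05. Rings lie on MCL1 at all 4 times, on PMAIP1 at 3 and 6 h and on BIK at 6 h.

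Promoters were compared with inhibitors over the 5 promoters and 3 inhibitors that had a tested probe set of their own. The median change of the inhibitors was 0.01, 0.02, -0.07 and -0.00 at the 4 times and that of the promoters 0.12, 0.06, 0.00 and -0.03, beside 0.01, -0.03, -0.15 and -0.14 for all probe sets. By means, the inhibitors were at -0.20, -0.30, -0.30 and -0.24 and the promoters at 0.11, 0.08, -0.27 and -0.12. Of the 3 inhibitors, BCL2 and BCL2L1 read little above the filter level and hardly moved, so the inhibitor mean mostly follows MCL1. Low signals enter the promoter mean as well: BAK1 sat at the filter, and BAX and BIK averaged 5.69 and 5.60, near BCL2L1 at 5.61. The mean change of promoters minus that of inhibitors was 0.23 and 0.40 in the 0.5 h arrays (0.31 ± 0.12, SD, n = 2) and 0.46 and 0.31 in the 1 h arrays (0.39 ± 0.10). It was 0.040 and 0.032 at 3 h (0.036 ± 0.0057) and 0.24 and 0.0046 at 6 h (0.12 ± 0.16). The difference was above 0 in both arrays at 0.5 and 1 h and near 0 at 3 h, and the 6 h arrays lay apart. With 18S signal as a covariate it was 0.18, 0.23, -0.17 and -0.12 at the 4 times, with the sign turned at 3 and 6 h, and with the spike-ins it was -0.16 at 3 h. With 2 arrays a time no exact test can pass, and no p is given for a score over chosen members.

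Single genes moved this difference. Without MCL1 the difference was 0.09, 0.04, -0.29 and -0.12, so that its sign turned at 3 and 6 h. Without PMAIP1 it was 0.34, 0.39, 0.30 and 0.41, and without BIK 0.31, 0.33, -0.0054 and -0.11. With both MCL1 and PMAIP1 left out, it was 0.11, 0.04, -0.03 and 0.16. The early difference was thus smaller without the inhibitor MCL1, and that at 3 h larger without the promoter PMAIP1.

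**Figure D5:**
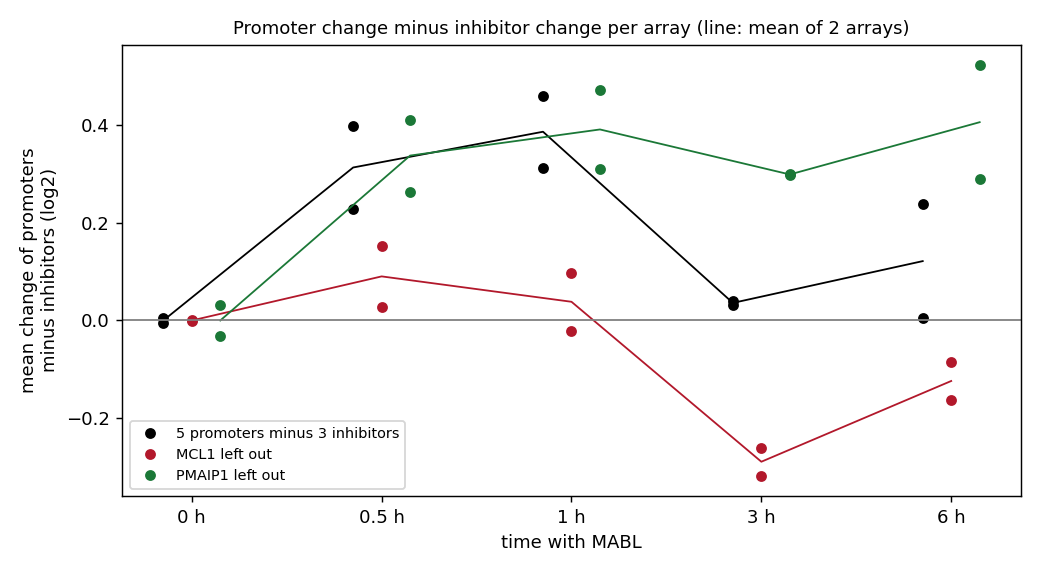
Mean change of 5 promoters minus that of 3 inhibitors in each array (points, log2 as read; line, mean of 2 arrays) at 5 times, for all 8 genes and with MCL1 or PMAIP1 left out. With all genes the means are 0.31, 0.39, 0.036 and 0.12, and without MCL1 they are 0.09, 0.04, -0.29 and -0.12.

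Of 15 other genes named to the BCL2 family, 12 had a probe set, and 2 of these were tested, BNIP3 and BNIP3L, receptors that mark mitochondria for removal. Both BNIP3 probe sets passed the filter only through the 6 h arrays, so their values are given as a description with no test. The first read 4.88 and 4.47 at 0 h, 4.47 and 4.05 at 0.5 h, 3.01 and 3.32 at 1 h, 4.87 and 4.46 at 3 h and 7.75 and 7.65 at 6 h. All 8 earlier arrays were under the filter level of 5, where differences say little. The second read 5.93 and 5.94 at 6 h and 3.81 to 3.87 in the others. One BNIP3L probe set was at 5 or more on all 10 arrays and rose by 1.39 at 6 h (SE 0.396, limma adjusted p = 0.0355). It read 8.33 and 8.76 at 6 h, and 7.69 and 6.62 at 0 h, so the size rests on 0 h arrays that lay far apart. The other BNIP3L probe set was at 5 or more on the 0 h and 6 h arrays alone, with 5.19 and 5.08, then 6.62 and 7.20. It read 3.56 to 3.82 in between. The other inhibitors BCL2L2, BCL2A1 and BCL2L10 averaged 2.44, 3.00 and 2.51, the effector BOK 2.59, and the BH3-only genes BAD and HRK 3.39 and 2.76, all below the filter.

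Of 19 genes of the mitochondrial death pathway, 11 of 16 with a probe set were tested. At the 4 times 0, 1, 0 and 1 of them were called higher and 2, 4, 3 and 1 lower (at unadjusted limma p under 0.05, 1, 1, 0 and 2 higher and 3, 5, 4 and 2 lower), with medians of -0.07, -0.54, -0.34 and -0.34. Of all tested probe sets, 15.1%, 24.2%, 26.4% and 21.6% were called lower and 1.92%, 4.14%, 2.53% and 4.07% higher, and nothing particular to this list or the next 2 is read from their counts. CYCS, the cytochrome c that the pores release, fell at 0.5, 1 and 3 h, with changes of -1.07, -1.22 and -0.80 (SE 0.179; limma adjusted p = 0.00807, 0.00196 and 0.0131), and was at -0.46 at 6 h (0.0979). VDAC3, a channel of the outer membrane, fell at the same times, with -0.53, -0.76 and -0.61. VDAC2, which holds BAK1 at the membrane, fell at 1, 3 and 6 h, with -0.57, -0.58 and -0.60, and VDAC1 fell by 0.81 at 1 h. Second probe sets of VDAC1 and VDAC3 were called lower as well, at 1 h by -0.94 and -1.35. HTRA2, a protease released along with cytochrome c, rose by 0.60 at 1 h (0.00536) and 0.60 at 6 h (0.00756), but a second HTRA2 probe set was not called. With equal array medians CYCS, VDAC1 and the 0.5 and 1 h falls of VDAC3 were still called, and the calls of VDAC2 and of VDAC3 at 3 h were lost (adjusted p = 0.0741, 0.104, 0.0577 and 0.0624). The list's higher and lower calls then stood at 1 and 2, 3 and 3, 2 and 1, and 2 and 0. Of all tested probe sets, 6.90% and 32.5% were then called higher at 0.5 and 1 h, and 15.3% and 19.5% lower. The shares at 3 and 6 h under that scaling are not given here. Nothing particular to this list or the next 2 is read from the counts with equal medians.

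Of 15 binding partners and stability factors of the family, 7 of 13 with a probe set were tested, 0 were called higher at any time and 1, 1, 3 and 2 lower (unadjusted, 1 higher at 1 h and 0 at the other times). Their medians were 0.05, 0.15, -0.17 and -0.20. BECN1, the autophagy protein that BCL2 binds, fell at all 4 times, with -0.39, -0.62, -0.56 and -0.43 (limma adjusted p = 0.0346, 0.00315, 0.00621 and 0.0177). These calls were lost with equal array medians (0.18, 0.0602, 0.148 and 0.321), where 0, 4, 1 and 0 genes of the list were called higher and 0, 0, 0 and 1 lower. Under that scaling 32.5% of all tested probe sets were called higher at 1 h, and 19.5% lower. DYNLL1, the dynein light chain that tethers the BH3-only protein BIM, was at 0.06 and 0.22 at 0.5 and 1 h and fell later, to -0.63 at 3 h (0.0129) and -1.23 at 6 h (0.00138). With equal medians its 3 h call was lost (0.0888), and its 1 h value became a call of 0.50 (0.0159). TPT1, also on this list, was called lower at 3 h (-0.40, limma adjusted p = 0.0372), a call lost with equal medians (0.597). A second of its 5 tested probe sets was called lower at 3 h (0.0293) and 6 h (0.0273), and the others were not called.

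Of 19 transcriptional regulators of the family, 8 of 18 with a probe set were tested. None was called higher by limma (unadjusted, 1 at 1 h), and 0, 1, 2 and 1 were called lower (unadjusted, 1, 2, 4 and 1), with medians of -0.02, -0.10, -0.29 and -0.16. MYC, which can sensitize cells to death, fell at 3 h (-0.66, SE 0.107, limma adjusted p = 0.00435) and 6 h (-1.33, adjusted p = 0.000498), after -0.18 and -0.28 at 0.5 and 1 h. MYC was still called with equal array medians, at -0.35 and -1.08. MYB, a factor of immature blood cells that can activate BCL2, fell by 1.66 at 1 h (SE 0.413, adjusted p = 0.0189). STAT3 was called lower at 3 h (-0.42, adjusted p = 0.0315), a call lost with equal medians (0.496). With equal medians, 0, 3, 2 and 1 genes of the list were called higher and 1, 1, 2 and 1 lower. At 1 h, 32.5% of all tested probe sets were then called higher and 19.5% lower.

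The probe sets whose course over the 10 arrays was most like that of MCL1 were those of GART, an enzyme of purine synthesis (Pearson r = 0.989), the peptidase NPEPPS (0.982) and LDLRAD4 (0.981). GART was at -0.79, -1.35, -1.18 and -0.87 from 0 h at the 4 times. For PMAIP1 they were ZWINT, a kinetochore protein (0.974), the RNA-binding protein YBX1 (0.967) and TYMS, the thymidylate synthase (0.965). ZWINT was at 0.09, 0.02, -0.76 and -0.85. The likeness was taken over 3684 probe sets with a single symbol that passed the filter, on arrays that share their groups, and is a description with no test.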

How the data were processed

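Total RNA of 10 MOLT-4 samples was hybridised to Affymetrix human arrays. The deposited value table holds a score for each of 22283 probe sets, for which the submitters' processing notes name GCRMA; its version, scale and any further normalization are not given in the sources used here. The deposited scores ran from 1.25e-05 to 238.1. Their square roots (highest 15.43) were read as log2 levels, with 68 control probe sets left out. Probe sets at 5 or more on at least 2 arrays (4276) were fitted with limma (version 3.58.1, under R 4.3.3; functions lmFit and eBayes; 5 times, 10 arrays, residual df 5, prior df 3.06), with Benjamini-Hochberg adjustment over all 4276. Called means adjusted p under 0.05. Precision is limited by having 2 arrays a time.

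The members and lists were chosen with earlier results of these data known. Genes were named through the platform annotation: 19071 probe sets had 1 symbol, 1043 several and 2169 none, and 19059 matched RefSeq by gene ID. Where a gene had several probe sets, the one with the highest mean stood for it in lists and roles; every member was named, and of each list those genes called at some time with the largest moderated statistics. Pearson r over the 10 arrays measured likeness. Motifs were searched with Python 3.11.15 in the 250 bases before each RefSeq start (GRCh38.p14), and plots drawn with matplotlib 3.10.9. Replicates correlated at 0.991 to 0.994 over probe sets. The fit was tested on simulated data for 3 h against 0 h: of 200 probe sets changed among 4276, it recovered 29.9% at a log2 size of 0.5, 68.7% at 1 and 95.5% at 2, with 5 unchanged ones called. The simulated noise was independent between probe sets, with no shift shared by the probe sets of an array. In the data, array medians of the tested probe sets at 3 h differed by -0.31 from 0 h, and 26.4% were called lower. The simulation therefore does not give the recovery or the false calls in these data. Alternatives were other scales, array scalings, filters, a variance trend, 18S and spike-in covariates, a replicate block, and leaving out each array; leaving out MCL1, PMAIP1 or BIK from the role comparison was added after seeing the data.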

Additional observations from a re-analysis of the deposited data

How the results depend on the processing

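The count of member probe sets called was 1, 1, 2 and 3 at 0.5, 1, 3 and 6 h. It was 2 at 0.5 h with log2 of the deposited scores, 2 at 0.5 h and 5 at 1 h with equal array medians, and 4 at 1 h with quantile normalization; under each of these 3, the submitters' fold rule was met 0 times, where the main count was 2 (PMAIP1 at 3 h and 6 h). With 18S signal as a covariate limma called 0, 0, 0 and 0 members (at unadjusted p under 0.05: 0, 1, 2 and 1). The share of all tested probe sets called in the 18S and spike-in fits is not given here. Both signals moved with time, so these fits part time from signal poorly, and nothing particular to the members is read from their counts. With the spike-ins limma called 0 at 0.5, 3 and 6 h (unadjusted 1, 2 and 2), and 1 member at successive times, where the main count was 2. With the filter at log2 7 that count was 1. Leaving out single arrays gave 0 to 1 calls at 0.5 h (unadjusted 1 to 3) and 1 to 2 at successive times.

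Promoters minus inhibitors was 0.14, 0.17, 0.019 and 0.067 at 0.5, 1, 3 and 6 h with log2 of the scores, and 4.01, 5.22, 0.34 and 1.18 score units with the scores as they stand. Quantile normalization gave 0.044 at 3 h. With the filter at log2 7 it was 0.63, 1.08 and 0.30 at 0.5, 1 and 3 h, where MCL1 is the single inhibitor left. With the 18S covariate it was 0.18, 0.23, -0.17 and -0.12, and with the spike-ins -0.16 at 3 h. At 3 h, leaving out single arrays gave 0.030 to 0.042. Leaving out MCL1, chosen after seeing the data, gave 0.090, 0.038, -0.29 and -0.12, leaving out PMAIP1 0.30 and 0.41 at 3 and 6 h, and leaving out BIK -0.0054 and -0.11 at those times. The cause was not tested.

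Of 1421 changes of tested member probe sets under alternatives, 24 lost their call and 13 gained one, and none reversed while called. Replicate numbers showed no strong shared effect: deviations of same-numbered arrays correlated at -0.231 to 0.147, over 0.1 in 2 of 10 pairs. Whether the samples were collected in pairs cannot be told from these correlations. A replicate block changed no call of a member at a time; it gave 1, 1, 2 and 3 calls, an F count of 4 in place of 3, and for MCL1 at 0.5 h a limma adjusted p of 0.0343. The 18S and spike-in fits gave no values for the fold rule, nor did the scores as they stand. Signal near background limits BCL2L11, BAK1 and the 13 untested probe sets. It also limits BCL2 (5.21 to 5.39) and BCL2L1 (5.54 to 5.69), which lay little above the filter level of 5. The lowest arrays of BIK (5.17 to 6.20) and BAX (5.42 to 6.12) came near that level too. So did those of the BBC3 probe set (5.36 to 5.80) and the second BID probe set (5.18 to 6.59). Having 2 arrays a time limits all members.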
